A study of Populus tremula x Populus alba with 6 samples.

Results

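The genes described here are 300 poplar genes over which many sequenced reads ran on the strand opposite to the annotated gene. They were chosen by their counts summed over all 6 libraries, on the numbered chromosomes other than chromosome 19: at least 120 opposite-strand counts, and an opposite-strand share of at least 0.3 of the counts on both strands. Of 32049 listed genes, 29923 lie on those chromosomes and 561 met both thresholds, and the 300 with the highest opposite-strand sum were taken. The values that chose them, the counts on each strand over all libraries, are given below as a description with no test. The contrast of RNAi with CTRL played no part in the choice.

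RNA was sequenced from shoot apices of the poplar hybrid 717-1B4 (Populus tremula x Populus alba). The RNAi group held 3 libraries from plants with an RNAi construct that knocks down DDM1, and the CTRL group held 3 libraries from wild-type plants. All plants grew at 21 °C under 16 h of light and went through 3 weeks of water deficit before being watered again for 1 week, so no comparison here sets drought against watering. The labels speak of RNAi lines without saying which library came from which, so effects of a line and of the knock-down cannot be told apart. The design text describes the samples as biological replicates. Libraries were made from polyadenylated RNA with a kit that keeps the strand of origin. The deposited files hold gene identifiers without names, so the level of DDM1, the markers of the apex and the functions of the 300 genes were not analysed here.

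A gene is transcribed from 1 strand of the DNA into its sense RNA. RNA can also be made from the other strand over the same stretch. For example, a neighbouring gene on that strand can run into or across the gene, or an antisense transcript can start there. Natural antisense transcripts of this kind are known in plants, and some take part in silencing or in the regulation of the sense gene. DDM1 is a chromatin remodeller that plants need to keep DNA methylation in place, chiefly over transposons, and transcripts from silenced DNA can appear where it is lost. A library that keeps strand separates sense from opposite reads, and a count taken without strand cannot.

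Libraries held between 14216534 and 17165295 sense counts in RNAi and between 12399644 and 15627060 in CTRL. Counts opposite to genes ranged from 238070 to 278109 in RNAi and from 211168 to 290053 in CTRL. The 300 genes alone held between 54.8% and 56.6% of all opposite-strand counts in the RNAi libraries and between 53.7% and 57.0% in the CTRL libraries. They held at most 0.408% of the sense counts of any RNAi library and at most 0.406% of those of any CTRL library. Stray reads on the wrong strand were rare elsewhere: in 1241 genes with at least 10000 sense counts and no reads shared with a gene of the other strand, the median opposite-strand share was 0.108%, and 95% of these genes had at most 0.525%.

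The opposite strand carried more counts than the sense strand in 228 of the 300 genes. In the other 72 the sense strand carried more, so that "dominant" does not describe them. The median share was 80.5%, and the lowest and highest were 30.6% and 100%. The share was at least 0.9 in 130 genes and at least 0.99 in 98 of these. Sense counts over all 6 libraries were under 60 in 108 genes and exactly 0 in 27. A count of 0 in a library allows up to 3 counts, or between 0.173 and 0.217 CPM in RNAi and between 0.184 and 0.259 CPM in CTRL. CPM on both strands means counts scaled to the library's own sense counts after TMM normalization. Such limits cover counting error only.

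**Figure D1:**
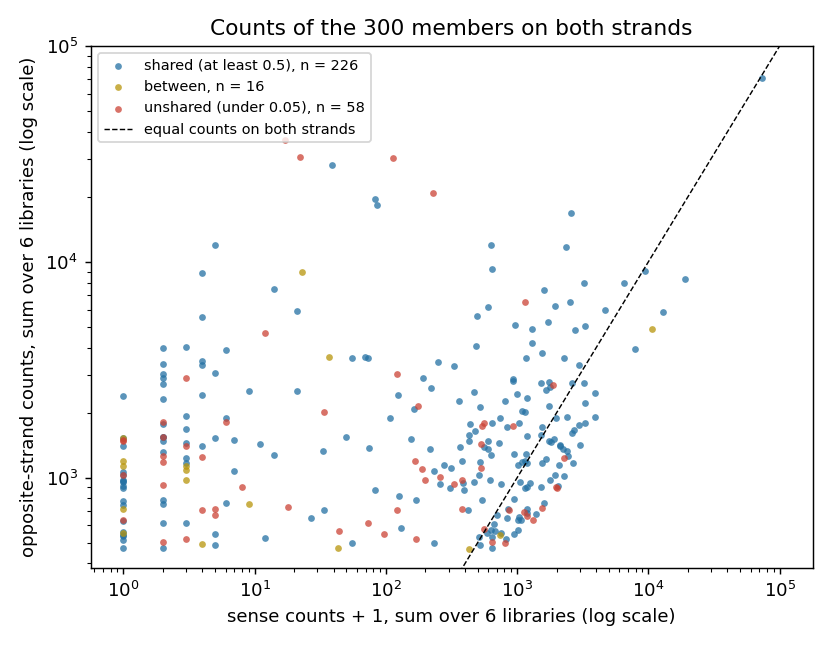
Each point is 1 of the 300 genes, with its sense counts plus 1 on the horizontal axis and its opposite-strand counts on the vertical axis, both summed over 6 libraries on log scales. Colour gives the class of the gene by its counts missing without strand per opposite-strand count, as explained below. Of the points, 72 lie below the dashed line of equal counts, among them Potri.005G239200 at the top right.

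At the edge of the share threshold, Potri.002G193000 entered with 1168 opposite and 2654 sense counts, a share of 30.6%, and Potri.015G125600 stayed out with 1875 opposite and 4440 sense counts, a share of 29.7%. The limit of 300 genes fell between Potri.002G189300, with 468 opposite counts, and Potri.004G150600, with 466. The threshold of 120 counts therefore decided no membership. On the same chromosomes 452 genes had at least 120 opposite counts at a share under 0.3. The same thresholds were met by 12 genes on chromosome 19 and by 10 genes on scaffolds, which are not described here. By chromosome, members made up between 0.598% of the listed genes (7 genes on chromosome 18) and 1.48% (23 genes on chromosome 14).

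The median distance between the share of a gene in its lowest and in its highest library was 9.0 percentage points, and it was under 5 points in 123 genes and over 20 points in 43. The median SD between libraries was 2.43 points in RNAi and 2.6 points in CTRL (n = 3 each). In 267 genes the share was at least 30% in each of the 6 libraries, and in the other 33 at least 1 library fell below it.

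For 226 of the 300 genes many of the reads also lay in an annotated gene on the other strand. This can be read from the counts taken without strand. A read in the exons of genes on both strands is ambiguous when strand is ignored and is counted for neither gene. With strand it counts as sense for 1 gene and as opposite for the other. The number of counts missing without strand, which is the sum of both strands less the unstranded count, was therefore set against the opposite counts. It came to at least 0.5 times the opposite counts in 226 genes, here called shared, with a median of 1.02. Sense reads of the gene in the overlap are missing too, so the value is not an exact part of the opposite counts. It was under 0.05 in 58 genes, here called unshared, and exactly 0 in 41 of those. The remaining 16 lay between. Among the 452 genes with as many as 120 opposite counts but a share under 0.3, 189 (41.8%) were shared and 231 unshared, against 226 (75.3%) of the 300. That difference was not tested.

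A gene with the same missing counts was found for 245 genes, most often next door. These were 216 shared genes, 14 of those between and 15 unshared ones, and in the 15 the match rests on the small remainder of missing counts and not on the bulk of the opposite reads. Where 2 genes overlap each other and no further gene, both lose the same reads when strand is ignored, and their missing counts match in every library. Where more genes overlap, the counts can differ, so the lack of a match does not show that no gene overlaps. A gene within 2 places in identifier order whose missing counts agreed within 5% over the 6 libraries was taken as the partner. Of the 245 partners 240 were the adjacent identifier and 5 lay 2 places away, and in 194 the missing counts were equal in each library to the last read. The partners were mostly genes of the ordinary kind: 232 had an opposite share under 30%, with a median of 0.810%, and 226 had more sense counts than the member had opposite counts. For the 216 shared genes with a partner, the opposite counts of the member came to a median of 49.6% of the sense counts of the partner, from 2.30% to 107%. They came to under 10% in 7 pairs and to 90% or more in 10.

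**Figure D2:**
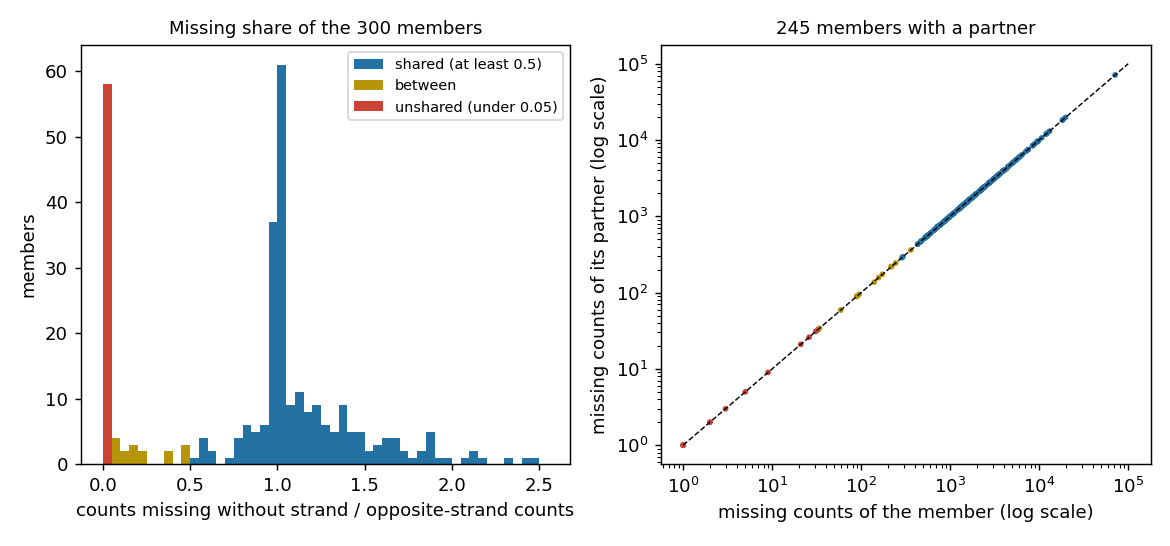
Left, the number of genes by counts missing without strand per opposite-strand count, in steps of 0.05, with a peak of unshared genes at 0 and one of shared genes near 1. Right, missing counts of 245 members against those of their partners, summed over 6 libraries on log scales, which lie along the dashed line of equality because partners were taken by that agreement.

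Counting without strand removes many of these genes from view. In 79 of the 226 shared genes the unstranded count was under 10% of the counts on both strands, and in 19 of the 300 genes it was 0 in all libraries. Potri.016G029000 on chromosome 16, which ranks first among the genes with a share of 100%, had 366, 398 and 335 opposite counts in RNAi 1, 2 and 3 and 299, 491 and 496 in CTRL 1, 2 and 3. It had 0 sense and 0 unstranded counts in each library. All of its opposite counts were sense counts of the adjacent Potri.016G029100, of whose 3064 sense counts they made up 77.8%. Potri.008G080200 on chromosome 8 likewise had 269, 312 and 209 opposite counts in RNAi and 231, 217 and 287 in CTRL, with 0 on the sense strand and 0 without strand. Its partner, Potri.008G080100, had 3075 sense counts. In both genes the RNAi and CTRL counts overlapped.

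In 6 pairs both partners were among the 300 genes, 12 genes in all, each with reads in both directions. Their shares lay between 30.7% and 38.5%. The most abundant pair was Potri.003G139000 and Potri.003G139100 on chromosome 3, with 9695 missing counts each. In Potri.003G139000 the opposite-strand share was 38.5%, 16.0% and 32.1% in RNAi 1, 2 and 3 and 34.5%, 28.8% and 50.4% in CTRL 1, 2 and 3. In Potri.003G139100 it was 24.0%, 53.1% and 29.3% in RNAi and 31.2%, 40.7% and 20.01% in CTRL. RNAi 2 was the lowest library for the first gene and the highest for the second, and CTRL 3 the reverse. These shares are not independent, since reads of each gene are the opposite reads of the other.

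The most abundant opposite-strand signal was that of Potri.005G239200 on chromosome 5. Its opposite level was 926, 533 and 854 CPM in RNAi 1, 2 and 3 and 819.5, 702 and 949 CPM in CTRL 1, 2 and 3. Its sense level was 895, 578 and 949 CPM in RNAi and 862, 768 and 913 CPM in CTRL, so that both strands were about equal in every library and RNAi 2 was low on both. Its 71111 opposite counts compare with 71121 counts missing without strand, and the adjacent Potri.005G239300 was its partner. They came to 85.8% of the 82914 sense counts of that gene. The partner averaged 904 ± 252 CPM in RNAi libraries and 957 ± 137 CPM in CTRL libraries on the sense strand (SD, n = 3 each).

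Of the next 5 genes by opposite counts, 4 were unshared, with almost no counts missing without strand. Potri.009G098500 on chromosome 9 had 36710 opposite and 16 sense counts, and all 36726 were kept without strand. Its opposite level was 489, 445 and 427 CPM in RNAi and 387, 281 and 431 CPM in CTRL. RNAi 3 lay just below CTRL 3 and the groups overlapped. Potri.005G002200 on chromosome 5 had 280, 422 and 315 CPM on the opposite strand in RNAi and 346, 400 and 293 CPM in CTRL. It lost 432 counts without strand, beside 30116 that were kept, and the adjacent Potri.005G002100 lost as many. Potri.008G114100 on chromosome 8 had 315, 383 and 271 CPM in RNAi and 401, 274 and 398 CPM in CTRL, and lost none. Potri.001G457300 on chromosome 1 had 220.3, 209 and 191 CPM in RNAi and 292, 204 and 297 CPM in CTRL, and also lost none. Sense levels of these 4 genes were at most 3.50 CPM in any library. In each the groups overlapped.

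The remaining gene of the 6, Potri.006G008400 on chromosome 6, had 28037 opposite and 38 sense counts and 0 counts without strand, so that all its reads were shared. No gene within 2 places had the same missing counts. Its opposite level was 339, 231 and 366 CPM in RNAi and 236, 362 and 331 CPM in CTRL, with full overlap of the groups.

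**Figure D3:**
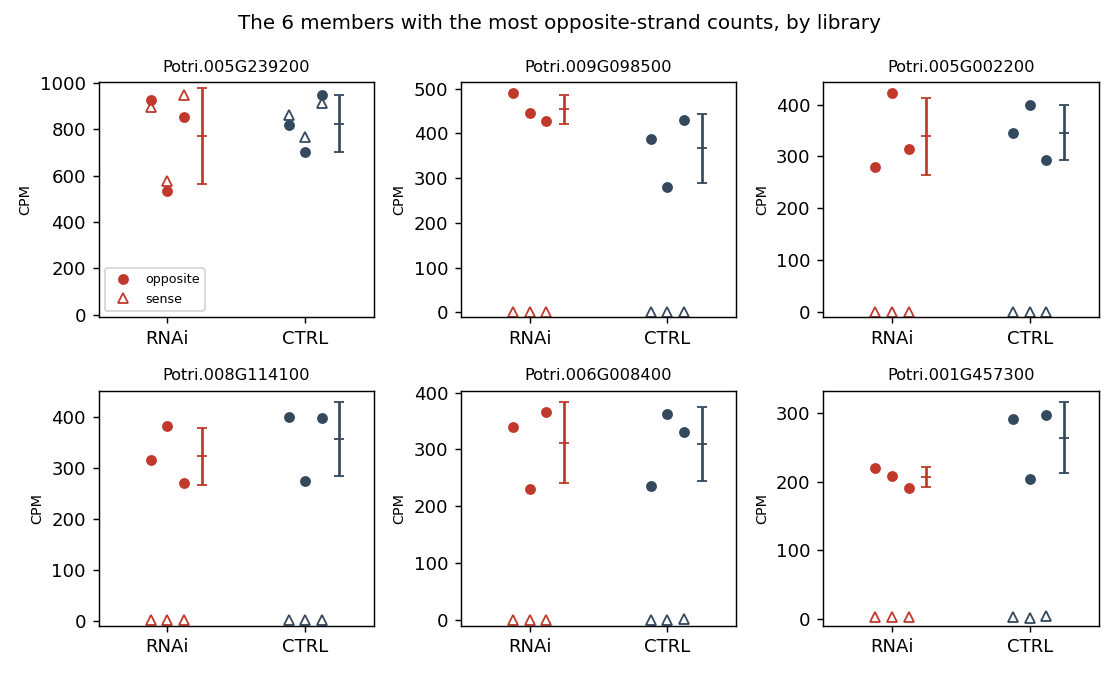
CPM of the 6 genes with the most opposite-strand counts, RNAi on the left and CTRL on the right of each panel. Filled circles are the opposite strand and open triangles the sense strand of each library, and the bars are the mean ± SD of the 3 opposite values. Only Potri.005G239200 has sense levels near its opposite levels, and the groups overlap in all 6 panels.

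The unshared genes had a higher share than the shared ones, a difference that was not tested. Their median share was 91.0%, against 75.8% in the shared genes and 99.8% in the 16 between. Of the 58 unshared genes 23 had a share of at least 0.99 and 10 a share under 0.5. They held 22.1% of the opposite counts of the 300 genes, and the shared genes 74.6%. In Potri.006G272200 and Potri.013G060700, the unshared genes among the 6 highest shares, the sense count was 0 in every library. Potri.006G272200 had 191, 359 and 289 opposite counts in RNAi and 144, 250 and 259 in CTRL. Potri.013G060700 had 171, 273 and 221 in RNAi and 242, 292 and 278 in CTRL. The counts of both genes overlapped between the groups. The other members of that list were Potri.012G057900, which lost 0.103 of its opposite counts without strand, and Potri.002G125600, which lost 0.954.

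No gene of the 300 was called changed on the opposite strand between RNAi and CTRL. All 300 passed the filter on low counts and were tested among 1724 genes with edgeR's quasi-likelihood test, and a call needed an adjusted p under 0.05. That test called 0 of the 300 and 0 of the 1724 (percent called 0), and DESeq2 and limma-voom also called 0 of the 300. The lowest adjusted p among the 300 was 0.77 in edgeR. At an unadjusted p under 0.05, edgeR gave 17 of the 300 (5.67%), against 5.97% of all tested genes. Of these, 5 were higher (1.67%) and 12 lower (4%) in RNAi, where all tested genes gave 2.49% and 3.48%. The groups did not overlap, with RNAi above, in 5 of the 300 genes (1.67%) and, with RNAi below, in 36 (12%), against 3.83% and 8.35% of all tested genes.

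Fitted opposite-strand values of the 300 were mostly a little lower in RNAi, and so were those of all tested genes. The median log2 fold change of the 300 was -0.11 and that of all 1724 was -0.10. Values were below 0 in 213 of the 300 (71%) and in 60.4% of all tested genes. When the libraries were scaled by their opposite-strand counts themselves, the medians were -0.01 and 0.01. Counts opposite to genes made up 1.62 ± 0.03% of stranded counts in RNAi and 1.75 ± 0.07% in CTRL. Without the 300 genes this share was 0.725 ± 0.026% in RNAi and 0.781 ± 0.015% in CTRL (n = 3 each, SD), so it was lower in all 3 RNAi libraries than in all 3 CTRL libraries with or without them. By class, the median log2 fold change was -0.12 in the shared genes and -0.01 in the unshared ones. The opposite levels of the unshared genes summed to 2143 ± 171 CPM in RNAi libraries and 2075 ± 57 CPM in CTRL libraries, and those of the shared genes to 6863 ± 264 CPM in RNAi and 7423 ± 294 CPM in CTRL (n = 3 each, SD).

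**Figure D4:**
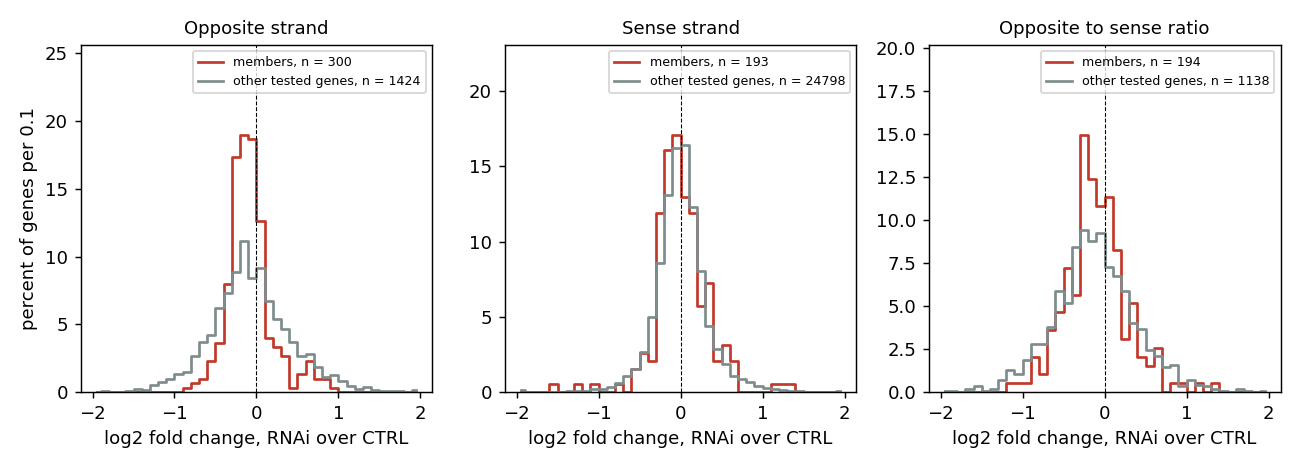
Percent of genes by log2 fold change of RNAi over CTRL, in steps of 0.1, for the members (red) and the other tested genes (grey), with values beyond 2 in either direction placed in the outermost step. The medians of the members are -0.11 on the opposite strand, -0.02 on the sense strand and -0.13 for the opposite to sense ratio.

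The largest fitted differences on the opposite strand did not pass the test either. Potri.008G018700 on chromosome 8 had 4.26, 4.42 and 3.00 CPM in RNAi and 5.71, 8.45 and 7.37 CPM in CTRL, and the groups did not overlap. Its log2 fold change was -0.89 ± 0.25 (SE, adjusted p = 0.77 in edgeR). Its partner, Potri.008G018600, averaged 9.67 ± 1.01 CPM in RNAi and 14.1 ± 2.18 CPM in CTRL on the sense strand (SD, n = 3 each), and these are in part the same reads. Potri.013G057300 on chromosome 13 had 8.52, 9.41 and 12.2 CPM in RNAi and 10.03, 20.8 and 20.5 CPM in CTRL, with CTRL 1 inside the RNAi range (log2 fold change -0.77 ± 0.28, adjusted p = 0.77 in edgeR).

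In the other direction, Potri.005G004700 on chromosome 5 had 8.74, 30.5 and 17.1 CPM in RNAi and 7.44, 10.8 and 10.9 CPM in CTRL. RNAi 1 lay inside the CTRL range, and the log2 fold change was 0.95 ± 0.37 (SE, adjusted p = 0.77 in edgeR). It was 0.41 when the library that most reduces it, RNAi 2, was left out. Potri.009G067800 on chromosome 9, an unshared gene, varied widely within both groups. It had 30.3, 57.9 and 179 CPM in RNAi and 22.7, 99.1 and 23.3 CPM in CTRL, with RNAi 3 and CTRL 2 far above the rest. Its sense level stayed between 9.04 and 16.0 CPM in RNAi and between 11.3 and 15.4 CPM in CTRL. The log2 fold change of its opposite level was 0.88 ± 0.76 (SE, adjusted p = 0.83 in edgeR) and turned to -0.13 without RNAi 3.

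On the sense strand no gene of the 300 was called either. Of the 300, 193 had enough sense counts to be tested among 24991 genes, and 107 did not. edgeR's quasi-likelihood test called 0 of the 193, where it called 1 gene in all (0.004%), and DESeq2 and limma-voom also called 0 members. At an unadjusted p under 0.05, edgeR gave 10 of the 193 (5.18%), against 5.64% of all tested genes, with 7 higher (3.63%) and 3 lower (1.55%) in RNAi, against 3.08% and 2.56%. The groups did not overlap, with RNAi above, in 12 of the 193 and, with RNAi below, in 10, against 5.75% and 6.08% of all tested genes. The median log2 fold change was -0.02 among the 193 and 0.00 among all tested genes. Summed sense levels of the 300 were 3893 ± 175 CPM in RNAi and 3885 ± 86 CPM in CTRL (n = 3 each, SD).

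The balance of opposite to sense counts was also tested directly, with both strands of a library in 1 model. It could be tested in 194 of the 300 genes, among 1332 with at least 10 counts on each strand in at least 3 libraries. edgeR's quasi-likelihood test called 0 of the 194 and 1 of the 1332 (0.0751%), and DESeq2 and limma on the log2 ratio called 0 of the 194. At an unadjusted p under 0.05 9 of the 194 (4.64%) stood out, against 4.95% of all tested genes, with the ratio higher in RNAi in 3 (1.55%) and lower in 6 (3.09%), against 1.58% and 3.38%. The groups did not overlap, with RNAi above, in 5 and, with RNAi below, in 13, against 3% and 8.41% of all tested genes. The median log2 change of the ratio was -0.13 among the 194 and -0.13 among all tested genes. When each strand was scaled by its own counts, the medians were -0.020 and -0.026. Without RNAi 3 the median of the members was -0.052. Of the 10 genes with an unadjusted p under 0.05 on the sense strand, 6 also had one for the ratio, and none had one on the opposite strand.

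In Potri.001G147200 on chromosome 1 the share varied with the sense strand. It had the widest range of shares between libraries, was singled out for it after its values were seen, and also had the largest fitted change of the ratio among the 194. Its share was 62.6%, 91.0% and 84.1% in RNAi 1, 2 and 3 and 37.1%, 69.3% and 76.8% in CTRL 1, 2 and 3. Its opposite level hardly varied, with 10.98, 12.9 and 12.5 CPM in RNAi and 11.7, 13.2 and 12.8 CPM in CTRL. Its sense level was 6.57, 1.28 and 2.36 CPM in RNAi and 19.8, 5.84 and 3.87 CPM in CTRL, with RNAi 1 inside the CTRL range. The log2 change of the ratio was 1.37 ± 0.64 (SE) and did not pass the test (adjusted p = 0.86 in edgeR).

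In shared genes with a partner, the member's opposite counts were on the whole a smaller percentage of the partner's sense counts in RNAi. Opposite counts that are not reads of the partner also enter this percentage, which reached 107%. This comparison was added after the data were seen and carries no test. The median over 216 shared genes with a partner of the member's opposite counts as a percentage of the partner's sense counts was 46.7%, 49.4% and 44.7% in RNAi 1, 2 and 3 and 49.6%, 52.5% and 53.6% in CTRL 1, 2 and 3. Each RNAi library was below each CTRL library, RNAi 2 and CTRL 1 by a narrow margin. Measured pair by pair on the log2 scale relative to the CTRL mean, the medians of these 2 libraries were -0.057 in RNAi 2 and -0.059 in CTRL 1, so the groups were not apart on that measure. The mean percentage was lower in RNAi in 193 of the 216 pairs (89.4%). It was lower in 411 of all 502 such pairs with at least 120 opposite counts on the numbered chromosomes (81.9%), which include the 216. Overlaps in which both genes qualified were entered once from each side, so the entries are not all distinct or independent. The groups did not overlap, with RNAi below, in 67 of the 216 (31.0%) and, with RNAi above, in 2, against 22.7% and 1.79% of all 502. The median log2 ratio of RNAi to CTRL was -0.15 in the 216 pairs. It was -0.13 in the other 286 entries, where the gene with the opposite counts is not among the 300. Without RNAi 3 it was -0.10 in the 216 pairs. Some of the 286 entries are pairs of the 216 read from the partner's side, so they are not a separate set.

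The partners were tested on the sense strand among all genes. edgeR's quasi-likelihood test called 0 of all 245 partners, where it called 1 of all 24991 tested genes (0.004%). At an unadjusted p under 0.05 it gave 6 of the 245 higher and 5 lower in RNAi, where all tested genes gave 3.08% and 2.56%. RNA quality and the position of the overlap within the partner were not measured in these files, and their part in the lower percentage was not tested.

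**Figure D5:**
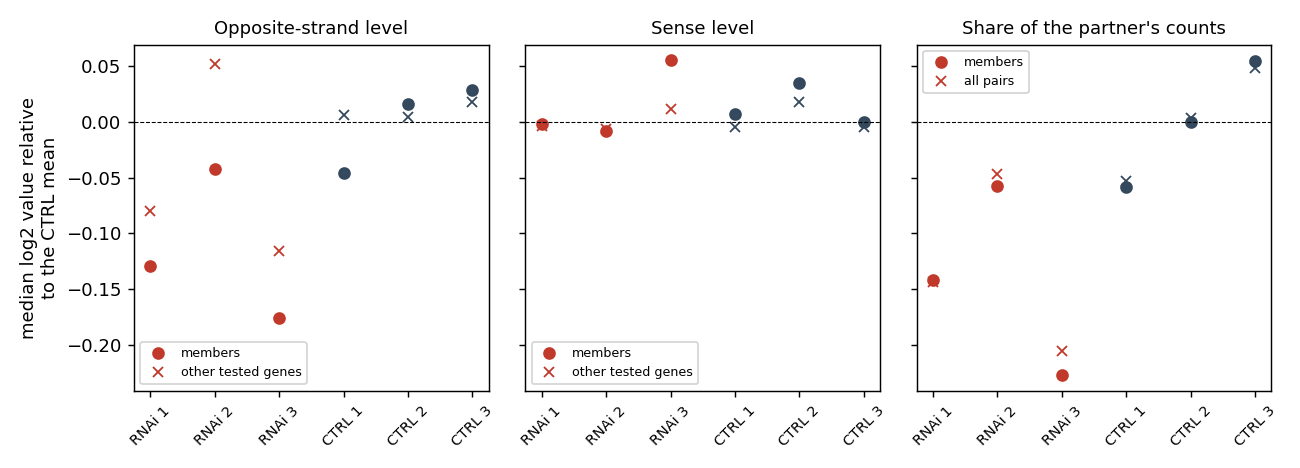
Median log2 value of each library relative to the mean of the 3 CTRL libraries, for the opposite-strand level (left), the sense level (middle) and the member's opposite counts per sense count of its partner (right). Circles are the members and crosses the other tested genes or, on the right, all 502 pairs. In the right panel the RNAi libraries lie at -0.14, -0.06 and -0.23 and the CTRL libraries at -0.06, 0.00 and 0.06, with RNAi 2 and CTRL 1 side by side.

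The 1 gene whose strand balance was called is not among the 300. Potri.004G129800 on chromosome 4, known from earlier work on these files, had 183 opposite counts in all, a share of 4.23%, and lost none without strand. Its share was 5.88%, 14.5% and 2.85% in RNAi 1, 2 and 3 and 0.589%, 0.406% and 0.267% in CTRL 1, 2 and 3. The log2 change of its ratio was 4.09 ± 0.67 (SE, adjusted p = 0.014 in edgeR), and it was not called without CTRL 1 (adjusted p = 0.18) or without CTRL 2 (0.11). Its adjusted p ran from 5.7e-10 to 0.18 over the alternatives. It entered the test through the RNAi libraries only, which were the ones with 10 or more opposite counts. On the opposite strand alone its adjusted p was 0.10 in edgeR with sense scaling and 0.040 with opposite-strand scaling, and it ran from 1.0e-12 to 0.78 over all alternatives.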

How the data were processed

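Each library has 1 deposited file of raw gene counts, with columns for no strand, forward and reverse, per the file headers. The submitters' processing notes name STAR; version, genome build, annotation and filters are not stated there. For this kit the reverse column was taken as sense and the forward column as opposite. Lines that name no gene (11.7% to 13.1% of reads) were left out.

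RNAi and CTRL were compared with edgeR 4.0.16 in R 4.3.3, using the robust quasi-likelihood test, two-sided, with Benjamini-Hochberg adjustment over all genes tested. Genes were filtered with filterByExpr, and TMM factors of the sense counts served both strands. The strand balance was fitted with a coefficient per library, for strand, and for strand by group. A standard error is the fitted log2 value over the root of its F statistic. The code was tested on simulated data. Alternatives included DESeq2 1.42.0 and limma 3.58.1. The filter was first run at TMM-scaled library sizes. After that run was seen it was changed to raw library sizes, as in earlier processing of these files, and the first version is among the alternatives.

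The members and lists were chosen with earlier results of these data known. The partner percentages, and the alternatives run on them, were added after the data were seen. Genes were named for the 6 highest opposite sums, the 6 highest shares, any call, the 2 largest and 2 smallest opposite-strand fold changes, and the edges of the thresholds. Because the identifiers have no names, extremes were limited to those of the opposite strand; Potri.001G147200, which has the largest strand-balance change, was described for its range of shares, after its values were seen. Replicates differed beyond sampling noise, with a chi-square over its degrees of freedom between 13.5 and 32.8. The p-values set a group difference against the spread between these samples. The labels give no batch.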

Additional observations from a re-analysis of the deposited data

How the results depend on the processing

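No member was called on the opposite strand in any of 15 alternatives, on the sense strand in any of 14 or for the strand balance in any of 12, and leaving out each library in turn was among them. Calls over all genes moved. On the opposite strand edgeR called 0 genes, against 1 with DESeq2, library size only, opposite-strand TMM factors or the replicate block (each Potri.004G129800) and 4 without a filter, and 0 to 2 with 1 library left out. On the sense strand it called 1 gene, against 37 with DESeq2, 2 with limma-voom, 0 with library size only, 0 with the replicate block and 0 to 7 with 1 library left out. For the balance it called 1 gene, against 2 with at least 1 count on each strand, 2 with the replicate block, 0 with limma on the log2 ratio and 0 to 1 with 1 library left out; without an RNAi library Potri.004G129800 was not tested. The cause was not tested. With 1 library left out, the log2 fold change of Potri.009G067800 on the opposite strand ran from -0.13 to 1.95 and that of Potri.004G129800 on the sense strand from -0.16 to 0.028, both through 0. The median of the members on the opposite strand was -0.01 with its own factors. The median log2 ratio of the partner percentage kept its sign, between -0.20 and -0.10 with 1 library left out. Genes meeting both thresholds numbered 450 to 712 under other thresholds and 544 to 576 with 1 library left out, and members with a partner 240 to 249. Deviations of same-numbered libraries correlated by 0.189, -0.0958 and -0.191 on the opposite strand and by 0.237, -0.0182 and -0.025 on the sense strand. Between libraries of different numbers the opposite strand gave values from -0.386 to 0.439. With 3 libraries per group this cannot decide whether the numbers pair the samples. The replicate block is therefore not read as a paired analysis, and under it no member was called. Genes with few opposite counts are limited by depth, and the 300 are the deepest of those that qualify. In simulated counts of all tested genes, 2-fold changes were called in 19 of 67 genes on the opposite strand. They were called in 36 of 67 on the sense strand and in 10 of 67 for the balance. For 4-fold changes the numbers were 59, 62 and 53 of 67. Each simulation changed 67, 67 and 66 genes by 2-, 4- and 8-fold at once, whereas the main tests called at most 1 gene. With many changed genes an adjusted p is easier to pass, so these numbers can overstate what could be called here. On the opposite strand Potri.004G129800, with a fitted log2 fold change of 4.25, was not called (adjusted p = 0.10 in edgeR). A gene without a call may therefore still have changed by 2-fold or more.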
